A study of Mus musculus with 12 samples.

Results

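Transcripts of 8 dual-specificity phosphatases that act on MAP kinases or on their signalling were followed through the response of mouse B cells to lipopolysaccharide (LPS). The genes were Dusp1, Dusp2, Dusp4, Dusp5, Dusp6, Dusp10, Dusp16 and Dusp22. They were taken by their mouse Entrez gene from a count table of 27179 genes, and all 8 passed the filter on low counts that left 12750 genes for testing. B cells came from the spleens of male C57BL/6 mice aged 6 to 12 weeks. The 6 stages had 2 biological replicates each, 12 libraries in all. Naive cells were untreated and sorted for B220, IgM and high IgD and against the T cell receptor. All other cells were isolated by negative selection and cultured with LPS at 25 µg/ml. Undivided activated cells, with the highest signal of the division dye CellTrace Violet and CD69 on the surface, were sorted at 3 h, 10 h and 33 h, the last just before the first division. At day 4, cultures started at a lower density gave expanded B cells, sorted as CD22+CD138-, and plasmablasts, the antibody-secreting product of the response, sorted as CD22-CD138+. The cells were bulk sorted populations, so fewer cells with a transcript and less of it per cell cannot be told apart.

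MAP kinases (ERK, JNK and p38) are switched on when a threonine and a tyrosine in their activation loop are both phosphorylated. The dual-specificity phosphatases remove both phosphates, and many of their genes are themselves switched on by MAP kinase signalling, which makes them a negative feedback. LPS reaches the MAP kinases of B cells through Toll-like receptor 4. Transcript levels do not measure the phosphatase proteins or the phosphorylation of their targets.

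The libraries held 23026619 to 60585587 counts in genes. Levels are RPKM, read counts per kilobase of gene and scaled to library depth, here with trimmed mean of M values (TMM) factors, and each pair of values is replicate 1 and then replicate 2. Counts were taken over the exons of each gene, and coordinates are those of GRCm38 (mm10). Changes are log2 fold changes with their standard error (SE), from edgeR's quasi-likelihood model of all 12 libraries. A gene was called where its change was tested to exceed 1.5-fold at an adjusted p under 0.05, with adjustment over all 12750 genes. The sorted cells carried their defining B cell transcripts, and Cd22 fell to 0.432 and 0.368 RPKM in plasmablasts while Sdc1, which encodes CD138, stood at 47.6 and 48.0. The transcript of Cd69, whose protein served to sort the activated cells, was at 269.5 and 264 RPKM at 3 h, but at 30.4 and 33.2 at 10 h and 16.9 and 14.6 at 33 h, not above the 35.2 and 32.5 of naive cells. The naive libraries also held transcripts of other cells. All 7 myeloid markers were detected there. Their sums were 406 and 163 RPKM against 0.204 to 9.74 in the other 10 libraries, where S100a8 was at 0. Lyz2, S100a8 and S100a9 made up most of the naive sums, whereas Itgam and Adgre1 were not highest in naive cells. Mean Itgam was 1.69 RPKM in naive cells and 5.17 in expanded B cells, and mean Adgre1 was 3.75 and 4.29. The sums for 4 erythroid markers were 376 and 288 RPKM in naive cells and 0 to 3.01 elsewhere, and those for 5 NK cell markers 13.8 and 11.9 against 0.476 to 3.06. The 7 T cell markers summed to 31.2 and 34.1 RPKM in naive cells and to 10.2 to 29.1 elsewhere, most of it Lck in naive cells (29.4 and 32.3) and Cd28 in plasmablasts (20.3 and 23.1), while Cd3e was at or under 0.185 in every library. The part of these cells in the changes that start from naive cells was not tested beyond leaving out each naive library, as given below for Dusp6.

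Within 3 h of LPS, Dusp2, Dusp4, Dusp5 and Dusp16 rose and Dusp6 and Dusp10 fell, Dusp6 by 18.1-fold, while Dusp1 and Dusp22 were not called. Across all genes tested, 21.0% were called higher and 24.3% lower at this transition, and the median log2 fold change was 1.37 for the 8 members and -0.03 for all genes. By 10 h the pattern had turned, with 5 of the 8 lower and none called higher, against 13.4% and 17.4% of all genes, and with medians of -1.76 for the members and 0.02 for all genes. The second rise came at day 4, as described below.

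**Figure D1:**
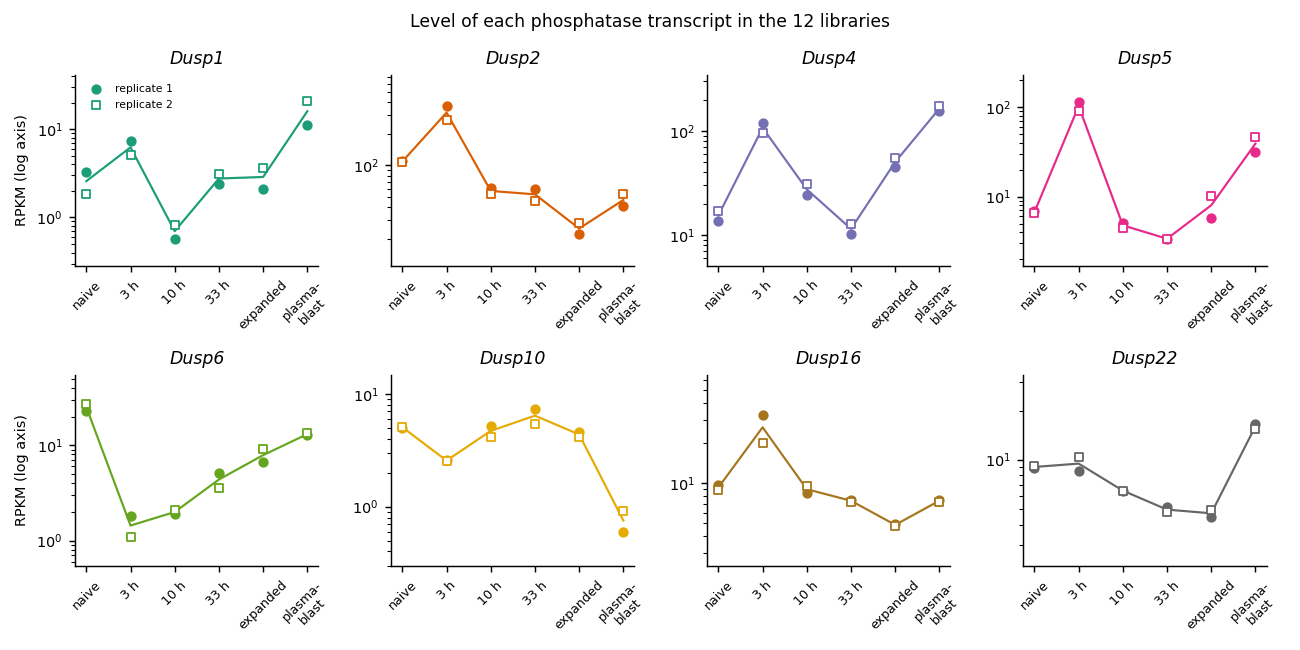
Level of each phosphatase transcript (RPKM, log axis) in the 12 libraries across the 6 stages. Filled circles are replicate 1, open squares replicate 2, and the line joins the means. Dusp2, Dusp5 and Dusp16 are highest at 3 h and Dusp6 is lowest there. Dusp4 rises at 3 h but is highest in plasmablasts, with 155 and 175.

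Dusp5 (Entrez 240672, chr19:53529145-53541809, plus strand), a nuclear phosphatase that acts on ERK, had the widest range of the 8 genes, 30.2-fold between its highest and lowest stage means. Its level was 6.96 and 6.48 RPKM in the naive libraries, 115 and 89.2 after 3 h, 5.09 and 4.46 after 10 h, 3.39 and 3.38 after 33 h, 5.81 and 10.2 in the expanded population and 31.7 and 46.4 in the plasmablasts. Both libraries at 3 h stood above all others, both plasmablast libraries came next, and naive and expanded B cells overlapped. The log2 fold change was 3.92 ± 0.26 (SE, adjusted p = 1.9e-07) from naive to 3 h and -4.41 ± 0.26 (adjusted p = 2.8e-07) from 3 h to 10 h. Only 0.965% of all genes tested changed by more at the latter transition. Dusp5 was not called from 10 h to 33 h, although the 2 stages did not overlap. The deposited length of Dusp5, 1155 bases, is close to its coding length of 1152 bases in GENCODE, while those of the other members exceed the coding part. An antisense gene, AC137853.2, shares 547 exonic bases with Dusp5, of which 338 are coding. Whether counting used the strand is not given in the sources used here, so reads of the 2 genes may be mixed.

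Dusp4 (Entrez 319520, chr8:34807610-34819894, plus strand), a nuclear phosphatase of ERK and JNK, was the member called at all 5 consecutive transitions. It was measured at 13.7 and 17.2 RPKM in the naive libraries, 119 and 95.7 after 3 h, 24.1 and 30.9 after 10 h, 10.1 and 12.8 after 33 h, 45.1 and 55.6 in the expanded population and 155 and 175 in the plasmablasts. The libraries were highest in plasmablasts, then at 3 h, then in expanded B cells, with no overlap and with gaps wider than the replicate differences. Naive cells and 33 h, the 2 lowest stages, did not differ beyond their spread. Dusp4 rose by 2.80 ± 0.18 on the log2 scale at 3 h (adjusted p = 1.6e-07) and was lower at 10 h (-1.97 ± 0.17, adjusted p = 1.2e-05) and at 33 h (-1.27 ± 0.17, adjusted p = 0.0027). From 33 h it rose by 2.14 ± 0.18 to expanded B cells (adjusted p = 2.3e-05) and by 1.71 ± 0.17 more to plasmablasts (adjusted p = 5.5e-05). From naive cells to plasmablasts the scaled level of Dusp4 rose 10.7-fold, which does not give the amount per cell.

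Dusp2 (Entrez 13537, chr2:127336159-127338377, plus strand), a nuclear phosphatase first described in activated lymphocytes, was the most abundant member in naive cells and at each stage up to 33 h. Its RPKM was 111 and 107 in the naive libraries, 369 and 270 after 3 h, 60.8 and 53.2 after 10 h, 59.9 and 45.9 after 33 h, 22 and 27.9 in the expanded population and 40.7 and 52.8 in the plasmablasts. The order ran from 3 h down to naive cells and then to 10 h without overlap, whereas 10 h, 33 h and plasmablasts overlapped one another in turn. Expanded B cells were lowest. The changes were 1.55 ± 0.18 to 3 h (adjusted p = 0.00012) and -2.49 ± 0.19 to 10 h (adjusted p = 2.5e-06) on the log2 scale. Dusp2 was also lower in expanded B cells than at 33 h (-1.09 ± 0.18, adjusted p = 0.024). That call was lost without 33 h replicate 1 (adjusted p = 0.25) and without expanded B cell replicate 1 (adjusted p = 0.19), within a range of 1.3e-06 to 0.25 over 23 alternatives.

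Dusp1 (Entrez 19252, chr17:26505591-26508472, minus strand), a nuclear phosphatase of p38, JNK and ERK that acts early in many cell types, had the lowest level of the 8 in naive cells and the largest SE of the 8 at each comparison. It stood at 3.30 and 1.86 RPKM in the naive libraries, 7.32 and 5.14 after 3 h, 0.567 and 0.831 after 10 h, 2.38 and 3.14 after 33 h, 2.09 and 3.66 in the expanded population and 11.1 and 20.8 in the plasmablasts. Plasmablasts were highest and 10 h lowest, without overlap with any other stage, while naive cells, 33 h and expanded B cells overlapped. No pair of neighbours in its order of levels differed beyond their spread. The 3 h value was not called against naive cells (1.24 ± 0.39, adjusted p = 0.053), with values from 0.00023 to 0.3 over 23 alternatives, of which 9 passed the threshold. The call was made, for instance, without naive replicate 1 (1.73, adjusted p = 0.022), and also without either library of expanded B cells (adjusted p = 0.039 each), plasmablast replicate 1 (adjusted p = 0.035) or plasmablast replicate 2 (adjusted p = 0.034). The fall to 10 h was called (-3.16 ± 0.43, adjusted p = 0.00028), from 255 and 304 counts to 53 and 61.

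Dusp16 (Entrez 70686, chr6:134715468-134807063, minus strand), a phosphatase of JNK and p38 that moves between nucleus and cytoplasm, shared the early peak at a smaller size. Its level was 9.68 and 8.90 RPKM in the naive libraries, 32.7 and 20.0 after 3 h, 8.44 and 9.57 after 10 h, 7.54 and 7.22 after 33 h, 4.96 and 4.76 in the expanded population and 7.51 and 7.26 in the plasmablasts. Both 3 h libraries were above all others, although the gap to naive cells was smaller than the difference between the 2 libraries at 3 h. The rise to 3 h was 1.5 ± 0.18 (adjusted p = 9.8e-05) and the change to 10 h was -1.54 ± 0.17 (adjusted p = 0.00013) on the log2 scale. Dusp16 was not called at any later transition.

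Dusp6 (Entrez 67603, chr10:99263231-99267489, plus strand), a cytoplasmic phosphatase with a strong preference for ERK, ran opposite to these genes from naive cells to 3 h. It was at 22.8 and 27.4 RPKM in the naive libraries, 1.79 and 1.08 after 3 h, 1.89 and 2.10 after 10 h, 5.14 and 3.6 after 33 h, 6.60 and 9.13 in the expanded population and 12.9 and 13.3 in the plasmablasts. Naive libraries were highest, plasmablasts next, and 3 h and 10 h lowest, the last 2 stages not overlapping but lying closer together than their replicates. From naive cells to 3 h Dusp6 changed by -4.18 ± 0.25 on the log2 scale (adjusted p = 5.4e-08), an 18.1-fold fall that 4.08% of all genes exceeded in size. The change was -4.30 without naive replicate 1, the library with more myeloid transcripts, and -4.03 without naive replicate 2. The rise from 10 h to 33 h (1.14 ± 0.22, adjusted p = 0.028) was lost without 10 h replicate 1 (adjusted p = 0.12), 10 h replicate 2 (adjusted p = 0.069) or 33 h replicate 1 (adjusted p = 0.25), within a range of 8.6e-05 to 0.25 over the alternatives. The ratio of Dusp5 to Dusp6 RPKM rose from 0.304 and 0.236 in the naive libraries to 64.2 and 82.6 after 3 h. After 10 h it was 2.70 and 2.13, after 33 h 0.660 and 0.940, and at day 4 it was 0.879 and 1.12 in the expanded population and 2.46 and 3.48 in the plasmablasts.

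Dusp10 (Entrez 63953, chr1:184034381-184075636, plus strand), a phosphatase of JNK and p38, was present at a low level until it fell in plasmablasts. Its RPKM was 5.0 and 5.12 in the naive libraries, 2.59 and 2.53 after 3 h, 5.23 and 4.16 after 10 h, 7.38 and 5.45 after 33 h, 4.57 and 4.16 in the expanded population and 0.593 and 0.910 in the plasmablasts. Plasmablasts lay below all other libraries, on 38 and 70 counts, and 3 h lay between them and the remaining 4 stages, whose neighbours did not differ beyond their spread. The change was -0.98 ± 0.19 from naive to 3 h (adjusted p = 0.02) and -2.52 ± 0.22 from expanded B cells to plasmablasts (adjusted p = 4.1e-06). The former was lost without naive replicate 2 (adjusted p = 0.055), with 0.00051 to 0.13 over the alternatives. The ratio of Dusp16 to Dusp10 RPKM was 12.6 and 7.89 at 3 h and 12.7 and 7.97 in plasmablasts, and lay between 1.02 and 2.30 in the libraries of the other stages.

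Dusp22 (Entrez 105352, chr13:30660059-30711232, plus strand), a small atypical member that lacks the kinase-binding domain of the others and is known to act on JNK signalling, changed least. It was at 8.84 and 9.20 RPKM in the naive libraries, 8.50 and 10.4 after 3 h, 6.46 and 6.45 after 10 h, 5.10 and 4.77 after 33 h, 4.45 and 4.92 in the expanded population and 16.6 and 15.5 in the plasmablasts. Naive cells and 3 h overlapped, as did 33 h and expanded B cells, and both plasmablast libraries were above all others. Of the 5 consecutive transitions only the last was called, with a rise of 1.77 ± 0.12 on the log2 scale (adjusted p = 8.4e-07).

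**Figure D2:**
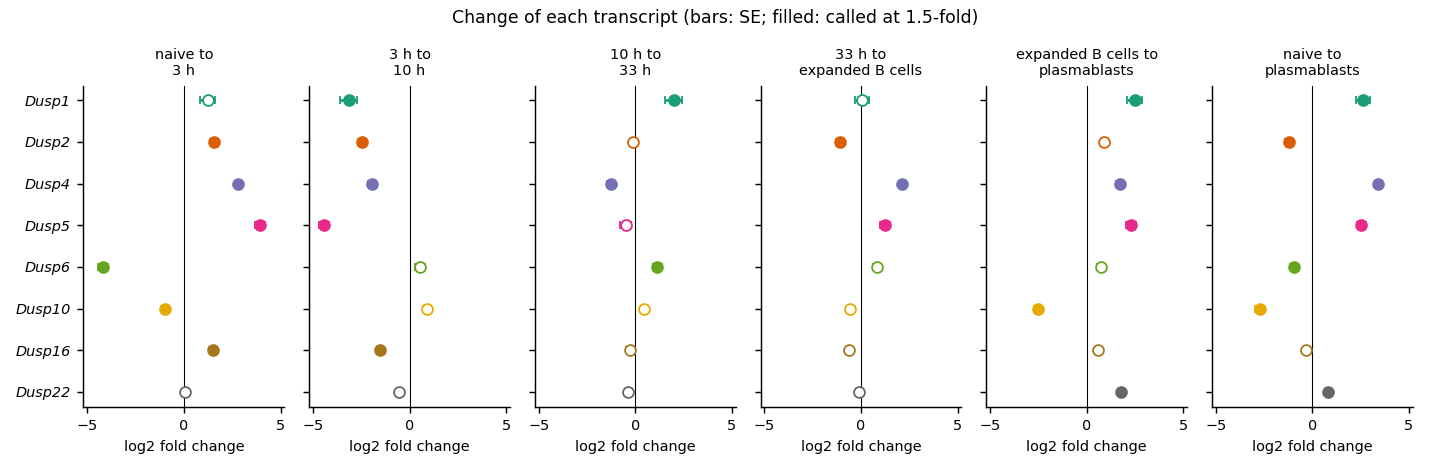
Log2 fold change of each transcript at the 5 consecutive transitions and from naive cells to plasmablasts. Bars are the SE, hidden where smaller than the point, and filled points were called past 1.5-fold. Dusp5 rises by 3.92 and then changes by -4.41 in the first 2 panels, and Dusp6 changes by -4.18 in the first.

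From 10 h to 33 h, Dusp1 and Dusp6 were called higher and Dusp4 lower, against 10.1% of all genes called higher and 4.45% lower. The change of Dusp1 was 1.99 ± 0.43 (adjusted p = 0.018). It was not called without 10 h replicate 1 (adjusted p = 0.12), 33 h replicate 2 (adjusted p = 0.099), 3 h replicate 1 (adjusted p = 0.062) or 3 h replicate 2 (adjusted p = 0.059), and its adjusted p ran from 8.6e-12 to 0.12 over the alternatives. Without 10 h replicate 1 the change of Dusp1 was 1.73 and that of Dusp6 1.07. From 33 h to expanded B cells, Dusp4 and Dusp5 were called higher and Dusp2 lower, against 6.94% and 3.66% of all genes. The rise of Dusp5 (1.23 ± 0.26, adjusted p = 0.043) was lost under 9 of the 23 alternatives. It was 0.78 without expanded B cell replicate 2 (adjusted p = 0.49), and it was not called without 33 h replicate 1 (adjusted p = 0.2), 33 h replicate 2 (adjusted p = 0.13), 3 h replicate 1 (adjusted p = 0.084), 3 h replicate 2 (adjusted p = 0.089) or naive replicate 2 (adjusted p = 0.051). The adjusted p of Dusp5 ran from 0.00012 to 0.49 here. Without 33 h replicate 1 the change of Dusp5 was 1.23 and that of Dusp2 -0.88.

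The second rise was that of plasmablasts. Dusp4 and Dusp5 were also called higher in expanded B cells than at 33 h, as given above. Compared with expanded B cells of the same day, Dusp1, Dusp4, Dusp5 and Dusp22 were higher and Dusp10 was lower, against 13.9% of all genes called higher and 12.2% lower. The median log2 fold change of the 8 members was 1.31, where that of all genes was -0.05. Dusp1 rose by 2.49 ± 0.38 (adjusted p = 0.00076) and Dusp5 by 2.29 ± 0.25 (adjusted p = 5.3e-05). The call of Dusp1 was lost in a fit to the 4 libraries compared (adjusted p = 0.072), with 1.1e-25 to 0.072 over the alternatives. Dusp2, with 0.91 ± 0.19 (adjusted p = 0.057), passed the threshold under 6 of 23 alternatives (adjusted p from 0.0013 to 0.52), among them without expanded B cell replicate 2 (adjusted p = 0.032) and without plasmablast replicate 1 (adjusted p = 0.02). Dusp6 and Dusp16 were not called, with 0.74 ± 0.21 and 0.60 ± 0.18.

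The early response genes Egr1, Fos and Ier2, whose transcripts follow ERK signalling and also respond to handling of cells, differed between the replicates of both day 4 populations in the same direction as Dusp1 and Dusp5. In plasmablasts Egr1 was at 39.7 and 137 RPKM, Fos at 11.6 and 24.3 and Ier2 at 52.9 and 118. In expanded B cells Egr1 was at 16.9 and 49.6, Fos at 1.88 and 5.16 and Ier2 at 17.8 and 32.0. Replicate 2 was thus the higher library for all of these genes in both populations. Egr1 and Ier2 were named after their values were seen. That direction did not hold for every gene known to respond to cell handling. Among the others, Fosb, Jun, Junb, Jund, Zfp36, Nr4a1, Hspa1b, Hspa8 and Dnajb1 were also higher in replicate 2 of both. Btg2, Hspa1a, Hsp90aa1 and Hspe1 were lower in replicate 2 of both, and Atf3 and Ier3 were higher in it only for plasmablasts. The ratio of replicate 2 to replicate 1 for Dusp1 was 1.75 in expanded B cells and 1.87 in plasmablasts, and for Dusp5 1.76 and 1.46. For Dusp4 it was 1.23 and 1.13. Without plasmablast replicate 2 the rise of Dusp1 was 1.99, still called. At 33 h replicate 1 was higher for Egr1, Fos and Ier2 and replicate 2 for Dusp1. The part of handling in the level of Dusp1 and Dusp5 was not tested.

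**Figure D3:**
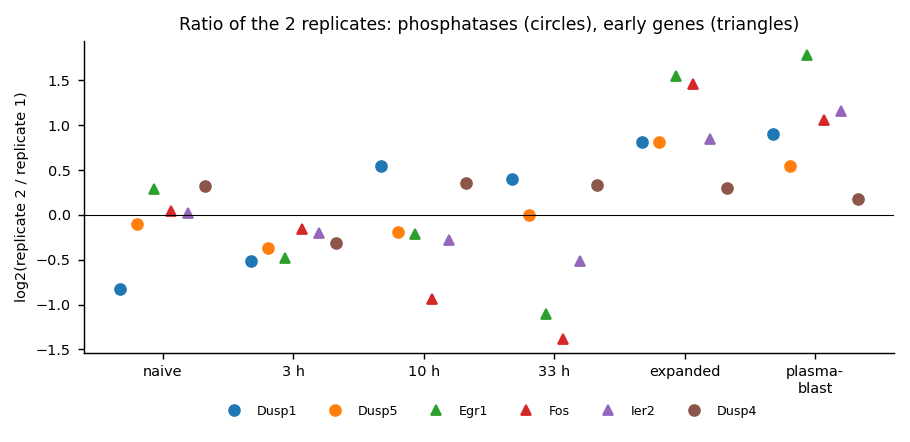
Log2 ratio of replicate 2 to replicate 1 (RPKM) by stage for Dusp1, Dusp4 and Dusp5 (circles) and the early response genes Egr1, Fos and Ier2 (triangles); 0 marks equal replicates. All 6 genes lie above 0 in expanded B cells and plasmablasts, and Egr1 and Fos lie far below 0 at 33 h.

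Across the whole course, plasmablasts differed from naive cells in 7 of the 8 genes, with 4 higher and 3 lower, where 26.6% of all genes were called higher and 23.4% lower. This comparison shares its libraries with the transitions above. Dusp4 was higher by 3.42 ± 0.19 (adjusted p = 1.5e-08), Dusp1 by 2.62 ± 0.38 (adjusted p = 0.00023) and Dusp5 by 2.54 ± 0.25 (adjusted p = 7.8e-06) on the log2 scale. The call of Dusp1 was lost in a fit to these 4 libraries alone (adjusted p = 0.077), with 1.4e-28 to 0.077 over the alternatives. Dusp10 (-2.73 ± 0.22, adjusted p = 4.3e-07) and Dusp2 (-1.22 ± 0.18, adjusted p = 0.0014) were lower.

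Dusp6 and Dusp22 changed less from end to end. Dusp22 was higher by 0.83 ± 0.12 (adjusted p = 0.015), a call lost without naive replicate 1 (adjusted p = 0.062) or plasmablast replicate 1 (adjusted p = 0.07) and under scaling by library size alone (0.54, adjusted p = 0.52), in a range of 2.2e-05 to 0.52. Dusp6 was lower, with -0.94 ± 0.20 (adjusted p = 0.032), a call lost without naive replicate 2 (adjusted p = 0.15), plasmablast replicate 1 (adjusted p = 0.09) or plasmablast replicate 2 (adjusted p = 0.072), in a range of 5.5e-05 to 0.23. Dusp16 was the member not called (-0.33 ± 0.18).

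The summed level of the 8 transcripts followed the same 2 peaks. It was 181 and 183 RPKM in the naive libraries, 656 and 494 after 3 h, 112 and 112 after 10 h, 101 and 86.2 after 33 h, 95.5 and 120 in the expanded population and 276 and 332 in the plasmablasts. The libraries at 3 h and in plasmablasts stood above all others. The composition differed between these peaks. Dusp2 made up 59.8% ± 2.0 (SD, n = 2) of the sum in naive cells and 55.4% ± 1.1 at 3 h, and 15.3% ± 0.81 in plasmablasts. The share of Dusp4 went from 8.47% ± 1.3 in naive cells to 46.7% ± 0.69 in expanded B cells and 54.4% ± 2.4 in plasmablasts. Dusp6 fell from 13.8% ± 1.7 of the sum in naive cells to 0.246% ± 0.039 at 3 h. The ratio of Dusp4 to Dusp2 RPKM was 0.123 and 0.161 in the naive libraries, 0.169 and 0.279 after 33 h, 2.05 and 1.99 in the expanded population and 3.80 and 3.31 in the plasmablasts.

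**Figure D4:**
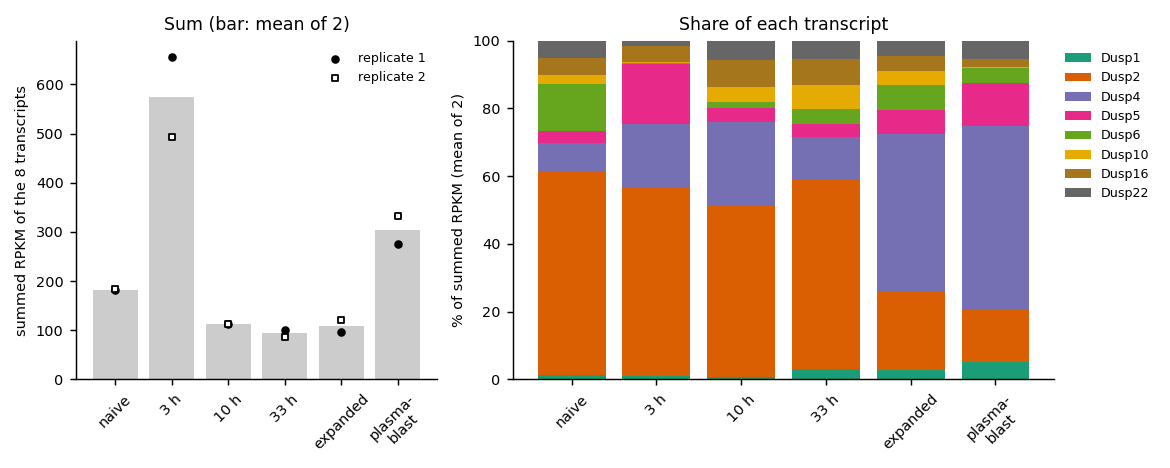
Left, summed RPKM of the 8 transcripts by stage, with bars for the mean and points for the 2 replicates. Right, the mean share of each transcript in that sum (%). Dusp2 is the largest share up to 33 h and Dusp4 in expanded B cells and plasmablasts, with 46.7% and 54.4%.

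Some members had like courses over the 12 libraries. As a description over libraries that share their stages, Pearson's r of log2 CPM (TMM, prior count 2) was 0.95 between Dusp2 and Dusp16 and 0.86 between Dusp4 and Dusp5. Dusp10 ran against Dusp4 (r = -0.86) and Dusp22 (r = -0.84). The r of Dusp6 with the others ran from -0.52 (Dusp16) to 0.28 (Dusp1). Among all genes tested, the transcript with the course most like that of Dusp2 was Pdlim5 (r = 0.988), followed by Rbm48 and Rab3gap1. Closest to Dusp5 were Sec24c (r = 0.979), Degs1 and Fyn, a Src family kinase. Mean levels of Fyn were 16.6 RPKM in naive cells, 84.3 at 3 h and 41.5 in plasmablasts. For Sec24c they were 50, 70.7 and 65.6 RPKM, and Pearson's r does not depend on the size of a change. Dusp4 was matched best by Cog3 (r = 0.982), Hacd2 and Adipor2, and Dusp1 by Trp53inp2 (r = 0.953), Stt3b and Slc35e1. For Dusp6 the closest were Ltk (r = 0.983), Bend5 and Spns3, for Dusp10 Vrk2 (r = 0.980), Vwa5a and Prkcb, for Dusp16 Traf6 (r = 0.985), Aar2 and Ovol1, and for Dusp22 Rabac1 (r = 0.980), Tex264 and B2m.

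The promoters of the members were read for short motifs of factors known to act on early response genes, since 5 of the 8 genes fell together from 3 h to 10 h. The windows ran from 250 bases before to 50 after the RefSeq start and were present for 7 members. That of Dusp16 (chr6:134792579-134792878) belongs to a start inside the gene interval given above and not to its 5′ end. Both strands were searched. The 200 bases before the start are shown for 3 of the 5 genes that fell together and for Dusp6. The latter had fallen from naive cells to 3 h and was not called from 3 h to 10 h. Capitals mark the cAMP response half-site TGACG, the EGR core GCGGGGG and the CArG box, the site of serum response factor. All are RefSeq sequence of GRCm38.p6, written 5′ to 3′ on the strand of the gene. Dusp1 lies on the minus strand (chr17:26508473-26508672), and Dusp2 (chr2:127335959-127336158), Dusp5 (chr19:53528945-53529144) and Dusp6 (chr10:99263031-99263230) lie on the plus strand.
Dusp1: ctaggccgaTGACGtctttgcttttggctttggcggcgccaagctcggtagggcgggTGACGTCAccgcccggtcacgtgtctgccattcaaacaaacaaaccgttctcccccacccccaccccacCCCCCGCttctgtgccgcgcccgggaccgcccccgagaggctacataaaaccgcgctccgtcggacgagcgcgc
Dusp2: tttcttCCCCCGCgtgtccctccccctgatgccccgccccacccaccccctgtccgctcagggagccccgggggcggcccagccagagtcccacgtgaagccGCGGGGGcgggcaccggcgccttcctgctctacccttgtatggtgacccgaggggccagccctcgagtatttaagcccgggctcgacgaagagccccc
Dusp5: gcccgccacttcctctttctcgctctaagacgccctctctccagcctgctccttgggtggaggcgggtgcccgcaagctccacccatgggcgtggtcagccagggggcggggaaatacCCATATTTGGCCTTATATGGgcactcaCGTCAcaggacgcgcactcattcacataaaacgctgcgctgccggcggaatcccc
Dusp6: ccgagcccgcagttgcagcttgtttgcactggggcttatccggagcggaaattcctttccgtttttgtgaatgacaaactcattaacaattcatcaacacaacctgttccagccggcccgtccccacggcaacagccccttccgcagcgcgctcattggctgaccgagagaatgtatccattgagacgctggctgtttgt

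The Dusp5 window held 2 CArG boxes, which began 82 and 72 bases before the start. A CArG box was found in 1.63% of all 32851 promoters and 2 or more of them in 0.0183%, 6 promoters in all. Dusp1 held the half-site at 3 places, 191, 143 and 140 bases before the start, of which the latter 2 overlap as a full palindromic site. The half-site occurred in 4 of the 7 members (Dusp1, Dusp2, Dusp5 and Dusp16) and in 20.8% of all promoters. That of Dusp2 began 5 bases after the start, outside the bases shown. The EGR core occurred in 4 of the 7 (Dusp1, Dusp2, Dusp16 and Dusp22) and in 10.8% of all. The windows of the 7 members were 57.3% to 79% G and C, above the median of 52.7% over all promoters, and the shares were not matched for this. An NF-kB site, read as 3 G and 2 C around any 5 bases, was in 6 of the 7 and in 50.8% of all, the ETS core GGAAG in 3 of the 7 and in 71.4%, and the AP-1 site TGANTCA in 0 of the 7 and in 7.81%. The Dusp6 window held neither half-site, EGR core nor CArG box. These are matches of letters in a short window and not sites shown to be bound.

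Of 18 further genes of the DUSP family, 11 were tested. From naive cells to 3 h, 3 rose (27.3%) and 4 fell (36.4%), against 21.0% and 24.3% of all genes. From 3 h to 10 h, 4 rose and 4 fell (36.4% each), against 17.4% and 13.4%. Dusp3, an atypical phosphatase of ERK and JNK, was lower at 10 h (-2.78 ± 0.14, adjusted p = 4.6e-08) and higher again at 33 h (1.89 ± 0.14, adjusted p = 2.9e-06). Dusp14, another atypical member, had 0 and 1 counts in naive cells, 168 and 166 at 3 h, and 71.4 and 76.0 RPKM in plasmablasts, more than any of the 8 genes but Dusp4. It was called higher at 3 h (adjusted p = 7e-06) and lower at 10 h (-1.93 ± 0.36, adjusted p = 0.004). It rose by 3.15 ± 0.33 from 33 h to expanded B cells (adjusted p = 0.00011) and by 2.31 ± 0.28 more to plasmablasts (adjusted p = 0.00018). Among 8 tested phosphatases of other families that act on MAP kinases, 2 rose (25%) and 1 fell (12.5%) at 3 h, against 21.0% and 24.3% of all genes. The latter was Ptpn7, a tyrosine phosphatase of ERK and p38 in blood cells (-1.50 ± 0.11, adjusted p = 1.6e-06). Ptpn7 rose again from 10 h to 33 h, by 1.98 ± 0.11 (adjusted p = 1.8e-07).

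The kinases that these phosphatases act on, and the genes upstream of them, were called at 3 h in shares to be read against the 21.0% of all genes called higher and 24.3% called lower. Of 11 MAP kinases tested, 2 rose (18.2%) and 3 fell (27.3%), with a median log2 fold change of 0.34 against -0.03 over all genes. Mapk14, which encodes p38α, fell from a mean of 38.6 RPKM to 6.36 (-2.60 ± 0.10, adjusted p = 8.9e-10) and rose again by 1.70 ± 0.10 at 10 h (adjusted p = 3.3e-07). Mapk6, an atypical MAP kinase, was higher by 2.00 ± 0.12 at 3 h (adjusted p = 5.4e-08) and by 3.05 ± 0.12 in plasmablasts than in naive cells (adjusted p = 3.4e-10). Of 7 MAP kinase kinases, 1 rose and 1 fell at 3 h (14.3% each), and both act on p38. Map2k3 rose by 1.79 ± 0.10 (adjusted p = 4.2e-08) and Map2k6 changed by -5.33 ± 0.26 (adjusted p = 4e-09). Among 21 MAP kinase kinase kinases, 4 rose (19%) and 7 fell (33.3%), and the largest rise was that of Map3k8, the kinase that links Toll-like receptors to ERK (3.08 ± 0.19, adjusted p = 3.4e-08). Of 11 Ras proteins and exchange factors 3 rose and 3 fell at 3 h (27.3% each), the largest rise being that of Rras2 (2.39 ± 0.10, adjusted p = 2.9e-09). Of 9 kinases that MAP kinases activate, 1 rose (11.1%), Mapkapk3 (1.51 ± 0.09, adjusted p = 2.3e-07), and 2 fell (22.2%).

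At the transition from 3 h to 10 h, where 5 of the 8 phosphatases fell, 13.4% of all genes were called lower and 17.4% higher. Of 18 tested brakes on Ras and Raf, 8 fell (44.4%), 1 rose and 9 were not called, with a median log2 fold change of -0.81 against 0.02 over all genes. Rasa3, a GTPase-activating protein for Ras, went from a mean of 148 RPKM to 7.03 (-4.40 ± 0.15, adjusted p = 3.2e-09). Of 14 ERK-responsive transcripts 11 fell (78.6%) and 0 rose, with a median of -2.35. Egr1 was among the 3 not called (-2.41 ± 0.74, adjusted p = 0.055). The largest fall of the list was that of Fos (-3.89 ± 0.72, adjusted p = 0.0024), on low levels. From naive cells to 3 h, 4 of the 14 had risen (28.6%), 2 had fallen (14.3%) and 8 were not called. Of all genes, 21.0% were higher and 24.3% lower there. The median of the list was 0.31 at that transition, against -0.03 over all genes. Myc, which had risen by 4.68 ± 0.13 at 3 h (adjusted p = 1.1e-10), changed by -2.47 ± 0.12 at 10 h (adjusted p = 3.6e-08). Of 18 genes known to respond to cell handling, which share Fos, Egr1, Ier2 and Ier3 with the former list, 9 rose (50%) and 0 fell at 3 h, against 21.0% and 24.3% of all genes, and 2 rose (11.1%) and 12 fell (66.7%) at 10 h. Their part in the early peak of the phosphatases was not tested.

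From 10 h to 33 h, 5 of the 18 Ras and Raf brakes rose (27.8%) and 0 fell, against 10.1% and 4.45% of all genes, the largest rise being that of Spred2, an inhibitor of Raf activation (3.89 ± 0.23, adjusted p = 8.4e-08). From expanded B cells to plasmablasts, 4 of the 14 ERK-responsive transcripts rose (28.6%) and 0 fell, against 13.9% and 12.2% of all genes, with a median log2 fold change of 0.85. Fos rose by 2.36 ± 0.48 (adjusted p = 0.0067), between replicates that differed as given above. Of the 11 MAP kinases, 1 rose (9.09%) and 2 fell (18.2%) at this transition, near the shares of all genes, and Mapk3, which encodes ERK1, was lower by a log2 fold change of -1.04 ± 0.09 (adjusted p = 0.00021).

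**Figure D5:**
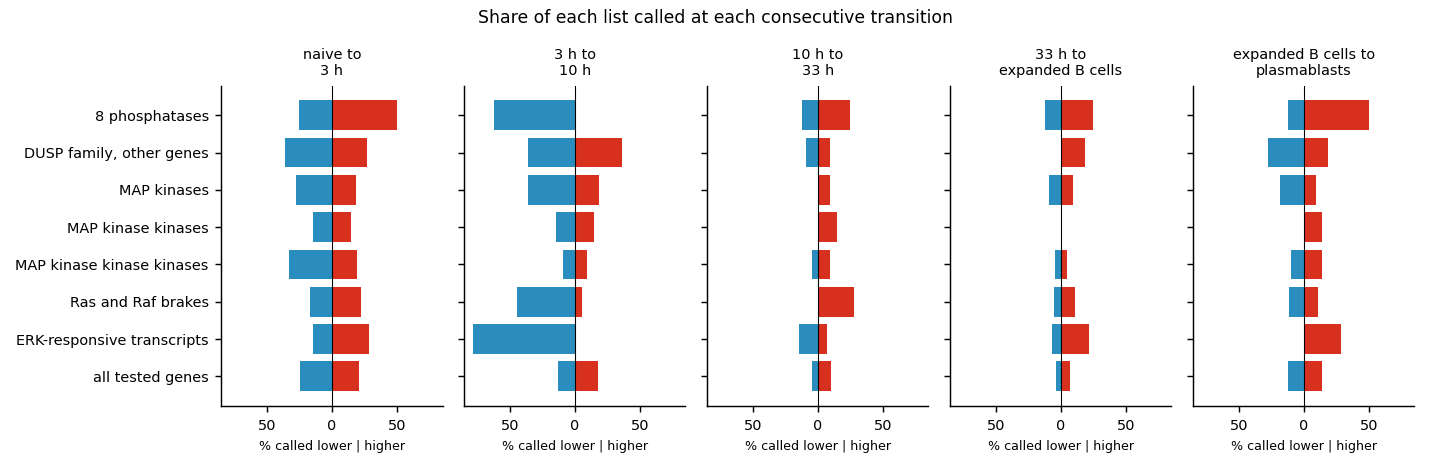
Share of each gene list called higher (right of 0) or lower (left of 0), in % of its tested genes, at the 5 consecutive transitions, with all tested genes in the bottom row. The 8 phosphatases and the ERK-responsive transcripts both turn to the left from 3 h to 10 h, with 5 of 8 and 11 of 14 called lower, against 13.4% of all genes.

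The direction of change over all genes depended on the scaling. Scaled by library size without TMM, the median log2 fold change of all genes was -0.24 from naive to 3 h, 0.35 from 3 h to 10 h, -0.38 from expanded B cells to plasmablasts and -0.26 from naive cells to plasmablasts. At these 4 comparisons 16.4%, 26.9%, 9.26% and 21.4% of all genes were then called higher and 29.1%, 7.87%, 23.2% and 30.5% lower. Of the members, Dusp10 was then called higher from 3 h to 10 h (1.21, adjusted p = 0.0033, within 0.0014 to 0.78 over its alternatives), which made 1 higher and 5 lower at that transition. Without 10 h replicate 2 it was called as well (1.04, adjusted p = 0.035).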

How the data were processed

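Libraries of polyadenylated RNA were made with the TruSeq RNA kit. Reads were aligned by the authors with Rsubread to mm10 and counted per Entrez gene with featureCounts. The submitters' processing notes name CASAVA 1.8.2. The deposited values are raw gene counts with gene lengths, used here for RPKM. Genes without a current entry, mitochondrial, ribosomal RNA, X, Y and immunoglobulin variable genes were left out, as in the study, and low counts were removed with filterByExpr. Counts were scaled by TMM and fitted with edgeR 4.0.16 (quasi-likelihood, robust, all 12 libraries), tested with glmTreat at 1.5-fold and adjusted by Benjamini-Hochberg at 0.05. SE is the log2 fold change over the root of the quasi-likelihood F. P-values rest on the spread between the 2 replicates of a stage, pooled for each gene over all 6 stages and moderated across genes. R 4.3.3, limma 3.58.1 and DESeq2 1.42.0 were also used, and the code was tested on simulated data.

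All 8 members were named, and from each pathway list the called genes with the largest rise and fall at a comparison, leaving out those with at most 3 counts in both libraries of a stage. Genes most like a member were taken by Pearson's r over 12 libraries. Dusp14 in naive cells, Egr1, Ier2 and the change of Myc at 10 h were named after their values were seen. The members and the lists were chosen with earlier results of these data known. Neighbouring levels differed beyond their spread where the gap between them exceeded the larger replicate difference.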

Additional observations from a re-analysis of the deposited data

How the results depend on the processing

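The log2 fold changes of the 8 members at the 6 comparisons were computed under 23 alternatives (11 other settings and each of 12 libraries left out). Of 1104 values, 1040 kept their direction and side of the threshold, 33 lost the call, 26 gained one and 5 changed sign, all of the 5 uncalled. Dusp22 from naive to 3 h turned to -0.13 under library size alone and lay between -0.11 (without 3 h replicate 2) and 0.21 with libraries left out. Dusp2 from 10 h to 33 h lay between -0.31 and 0.08 (without 33 h replicate 2), and Dusp1 from 33 h to expanded B cells between -0.39 (without expanded B cell replicate 2) and 0.41, with -0.14 without 33 h replicate 1. From 33 h to expanded B cells, 3 members were called, and 1 with the DESeq2 Wald test. The F-test without a fold threshold, which tests against no change, called 6. Of all 12750 genes, the Wald test called 603 higher and 292 lower here, and the F-test 2353 and 2700. From expanded B cells to plasmablasts, 5 members were called and, with that F-test, 8. At this transition the F-test called 3469 of all 12750 genes higher and 3787 lower. With each library left out, 1 stage kept only 1 library, and the number of genes called changed both for the members and over all genes. Whether libraries of the same replicate number shared animals or cultures is not given in the sources used here. In 15 pairs of stages, the correlation of replicate differences over all genes tested ran from -0.139 to 0.0841, with 0 over 0.1. It was highest between expanded B cells and plasmablasts, and low values cannot exclude such sharing. With the replicate block, 6 members were called from naive to 3 h, 5 from 3 h to 10 h and 3 from 10 h to 33 h. From 33 h to expanded B cells 2 were called, from expanded B cells to plasmablasts 5 and from naive cells to plasmablasts 7. Of all 12750 genes, the block called 2664, 2208, 1283, 871, 1754 and 3382 higher in the same order. It called 3089, 1695, 570, 461, 1551 and 2975 lower. The 1 call of a member lost with the block was that of Dusp5 from 33 h to expanded B cells (adjusted p = 0.051). Of 48 stage means, 18 moved by more than 1 SD of the replicates under library size alone and 4 under DESeq2 size factors. Dusp1 at 10 h and Dusp10 in plasmablasts rest on 38 to 70 counts a library.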

Other observations

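Among the family members outside the 8 genes, Dusp19, an atypical phosphatase, fell at 3 h (-2.67 ± 0.23, adjusted p = 1.4e-06 by edgeR) and rose by 2.42 ± 0.23 at 10 h (adjusted p = 9.7e-06). Dusp12 was lower in plasmablasts than in expanded B cells (-1.39 ± 0.12, adjusted p = 2.6e-05). Styx, a catalytically inactive relative that binds ERK, rose by 1.75 ± 0.12 at 3 h (adjusted p = 3.4e-07). Dusp28 was lower in plasmablasts than in naive cells (-1.99 ± 0.20, adjusted p = 9.4e-06).

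Among the kinases that MAP kinases activate, Rps6ka2 was higher in plasmablasts than in expanded B cells by 2.45 ± 0.15 (adjusted p = 1.8e-07 by edgeR), from a mean of 0.970 to 5.29 RPKM, while Mknk2 was lower (-1.0 ± 0.09, adjusted p = 0.0003). Of the Ras exchange factors, Rasgrp2 was lower in plasmablasts than in naive cells (-4.08 ± 0.15, adjusted p = 2e-10), from a mean of 83.4 to 4.92 RPKM, and 7 of the 11 genes of that list fell (63.6%) and 1 rose (9.09%) over this comparison, against 23.4% and 26.6% of all genes, with a median log2 fold change of -1.05 against 0.02 over all genes.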
